A study of Mus musculus with 35 samples.

Results

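Of the 59485 peaks that the authors listed for tagged NELFA in mouse embryonic stem cells, 858 (1.44%) lay on sequences outside the assembled chromosomes. They were taken by sequence name alone: every peak on a scaffold of the mm10 assembly whose name holds "random" or begins with chrUn. The 858 peaks were spread over 29 scaffolds, of which 13 are assigned to a chromosome without a position (random, 694 peaks) and 16 are assigned to none (unplaced, 164 peaks). A further 58625 peaks lay on chromosomes 1 to 19, X and Y, called the placed chromosomes here, and 2 on the mitochondrial genome.

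The series studied NELFA in embryonic stem cells and its link to the 2-cell-like state, a rare and passing state of these cultures that resembles the early embryo. The cells were E14 mouse embryonic stem cells kept in medium with serum, LIF and 2i, a pair of kinase inhibitors. They carried a doxycycline-inducible transgene for NELFA with a Strep-HA tag, joined through P2A to EGFP, and all ChIP-seq cultures received doxycycline at 0.4 µg/ml for 16 h. The 7 ChIP-seq libraries were 4 immunoprecipitations through the HA tag (3 with the first HA antibody, 1 with the second, from 3 replicates) and 3 inputs. No ChIP library came from uninduced cells, and the induced protein is expressed from the transgene beside the native gene. The series also holds 20 RNA-seq and 8 ATAC-seq libraries, which were left out. Since 1 list stands for all 7 ChIP libraries, the values have no replicate error and no test between samples was possible. Intervals below cover counting error only, and peaks are not replicates of the experiment.

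NELFA is one of the subunits of NELF, the negative elongation factor, which together with DSIF holds RNA polymerase II shortly after it has begun transcription, until the kinase P-TEFb releases it. Random and unplaced scaffolds are pieces of a genome assembly that could not be joined to a chromosome, often because they hold duplicated or repeated sequence. A read from such sequence can match several places equally well, and copies that the assembly lacks send their reads to the copies it has, in the immunoprecipitate and in the input alike. The gene table used (RefSeq for GRCm38.p6) names no scaffold for its genes outside the chromosomes, so no member peak could be placed in or near a gene. The sequences and lengths of the scaffolds were not used here.

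The scaffold peaks were, on the whole, somewhat stronger, wider and more crowded than those of the placed chromosomes. Their median fold enrichment, the authors' value for a peak's summit (immunoprecipitate over control, a ratio), was 2.41 (95% order-statistic interval 2.36 to 2.5), beside 2.09 on the placed chromosomes. The median width was 286 bp (258 to 313) beside 169 bp. The median −log10 q was 5.81 (5.43 to 6.61) beside 3.31. Most listed peaks were scored against the same control level, as described below, so their −log10 q follows from the fold. This difference is therefore not separate from that in fold. A fold of at least 5 was reached by 44 members (5.13%, Wilson interval 3.84 to 6.81%), where 3.0% of the whole list reached it. A fold of at least 10 was reached by 6 members, and by 0.234% of the whole list. At the other end, 619 members (72.1%) had a fold under 3, against 85.8% of the whole list. A width of at least 1 kb was found in 101 members (11.8%), against 4.33% of the whole list. Neighbouring summits on a scaffold were under 1 kb apart in 469 of 829 cases (56.6%, 53.2 to 59.9%), and in 31.6% of cases on the placed chromosomes. These are descriptions side by side, with no test. The strong members were uneven: random scaffolds had 15 of 694 peaks at fold 5 or above (2.16%), unplaced scaffolds 29 of 164 (17.7%), and 17 of those 29 lay on a single scaffold, chrUn_JH584304. Without that scaffold the share of members was 3.21%.

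**Figure D1:**
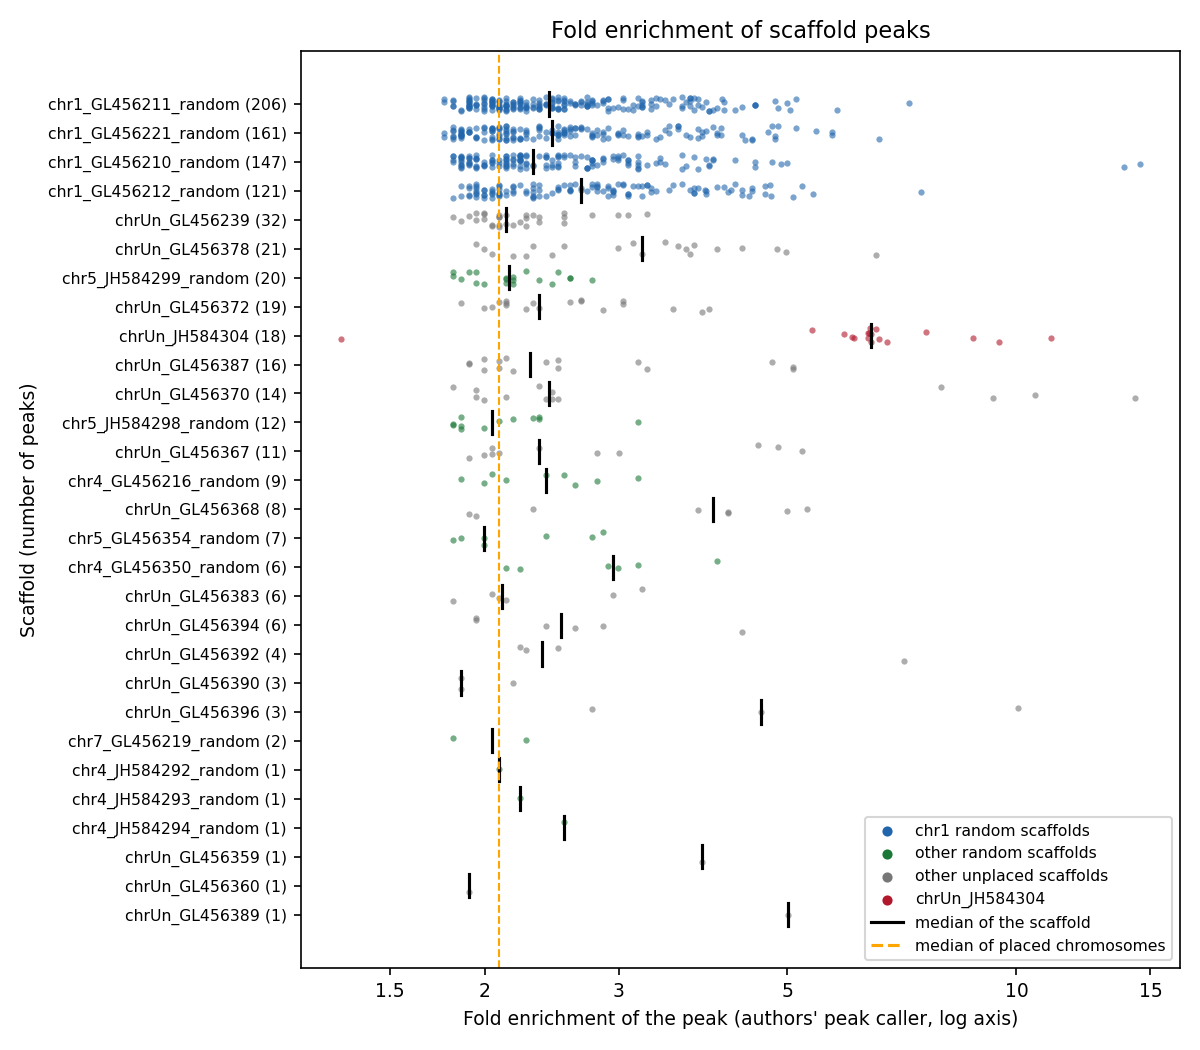
Fold enrichment of each of the 858 scaffold peaks (points, log axis), by scaffold, with the number of peaks in parentheses; black bars are scaffold medians and the dashed line is the median of the placed chromosomes, 2.09. Most scaffolds centre between 2 and 3, chrUn_JH584304 centres at 6.43, and the strongest points are on chr1_GL456210_random and chrUn_GL456370.

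The levels behind each fold could be calculated back from the list. MACS2, the peak caller named by the submitters, reports the immunoprecipitation level over the control level, each with 1 added, and a Poisson p-value for the same pair. For the control it takes the highest of local estimates and a genome-wide one, which acts as a floor. Fold values in this list were whole multiples of 0.0454 for 58320 of the 59485 peaks, with the −log10 p that a control of 21.0 stacked reads predicts (largest difference 0.000214 over 214 distinct fold values on the placed chromosomes). A matching −log10 p was a condition for this group, so the small difference is no separate check. Of the 58326 peaks on the step, 6 did not meet the condition. The 58320 peaks were scored against the floor, and their immunoprecipitation level followed directly. The remaining 1165 peaks (1.96% of the list) were scored against a local control above the floor, and the pair of values was solved from fold and p. Of the 1121 of these with an immunoprecipitation level under 5000, 99.2% came out as a whole number within 0.01. The lowest immunoprecipitation level in the list was 38 stacked reads, and the median over the members was 52. Among the members, 40 of 858 (4.66%, 3.44 to 6.29%) were scored above the floor, on 10 scaffolds.

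Most members came from 4 scaffolds assigned to chromosome 1, which together held 635 peaks (74.0%) over 763432 bp between their first and last peaks. Of this span, 42.9% lay inside peaks, at 83.2 peaks per 100 kb. On placed chromosome 1 the Sp100, Sp110 and Sp140 genes (85570735 to 85709998), which encode nuclear-body proteins, had 104 peaks at 74.7 per 100 kb, with 29.7% of the region in peaks and a median fold of 2.36. That region was measured between gene bounds, not between first and last peaks. Of its peaks, 5.77% reached fold 5. Among 13330 bins of 100 kb on the placed chromosomes that held a peak, the median was 2 peaks, and 78 bins held 70 or more, 5 of them on chromosome 1. The fullest bin held 117 peaks, and the fullest on chromosome 1 held 100. The 4 scaffolds had a median fold of 2.45 (2.36 to 2.5), beside 2.18 on placed chromosome 1, and a median width of 304 bp beside 203 bp. Their share at fold 5 or above was 2.36% (15 of 635), and that of placed chromosome 1 was 2.37%, so the strong peaks took nearly the same share in both. Only 6 of the 635 were scored above the control floor, at levels of 21.2 to 30.7. The control used for scoring was thus at or close to the genome-wide level at every one of these summits. A local control below the floor cannot be seen in these values, since the floor then takes its place.

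chr1_GL456211_random carried the most peaks, 206 between 357 and 236182, covering 41.3% of that span. Its folds ran from 1.77 to 7.22 with a median of 2.43. The strongest and widest peak was the same, 4951 bp from 167105 to 172055, with a summit at 170099, a fold of 7.22 and 158 stacked reads over the floor of 21.0. It lay inside the scaffold's longest run of peaks, 60 peaks from 140409 to 199897. A run here and below joins intervals with gaps under 1 kb, from the end of 1 interval to the start of the next. The longest stretch without a peak was 10900 bp near the start (5715 to 16614).

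chr1_GL456221_random had 161 peaks from 501 to 206383, covering 41.1% of the span, with a median fold of 2.45. Its strongest peak, 961 bp from 140119 to 141079, had a fold of 6.59, from 155 reads over a control of 22.7. The widest was 4022 bp (125195 to 129216; fold 5.45). Both were in a run of 31 peaks from 107378 to 149822, and 5 peaks of the scaffold reached fold 5, all of them inside that run. No peak on either side of the run reached fold 5.

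chr1_GL456210_random had 147 peaks from 179 to 168990, covering 32.3% of the span. Its median fold, 2.31, was the lowest of the 4, yet it held the strongest peak of all members and the third-strongest. The first of these was 1494 bp from 117063 to 118556, with its summit at 118019, a fold of 14.5 and 319 stacked reads. The other was 3250 bp from 2603 to 5852, with its summit at 3951, a fold of 13.8 and 304 stacked reads. Both were scored against the floor of 21.0, so the local control was not raised at either. No other peak of this scaffold reached fold 5.

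chr1_GL456212_random had 121 peaks from 577 to 153487, with the highest covered share of the 4 (59.4%) and the highest median fold (2.68). Its widest peak, 7617 bp from 80503 to 88119, had a fold of 5.08 and lay in a run of 22 peaks from 62763 to 103618. The strongest was the last peak of the scaffold, 3785 bp from 149703 to 153487, with a fold of 7.49 and 164 reads over the floor. Within each of the 4 scaffolds wider peaks also had higher folds (Spearman's rho across peaks of 1 scaffold 0.86 to 0.91, a description across peaks that share the same libraries).

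**Figure D2:**
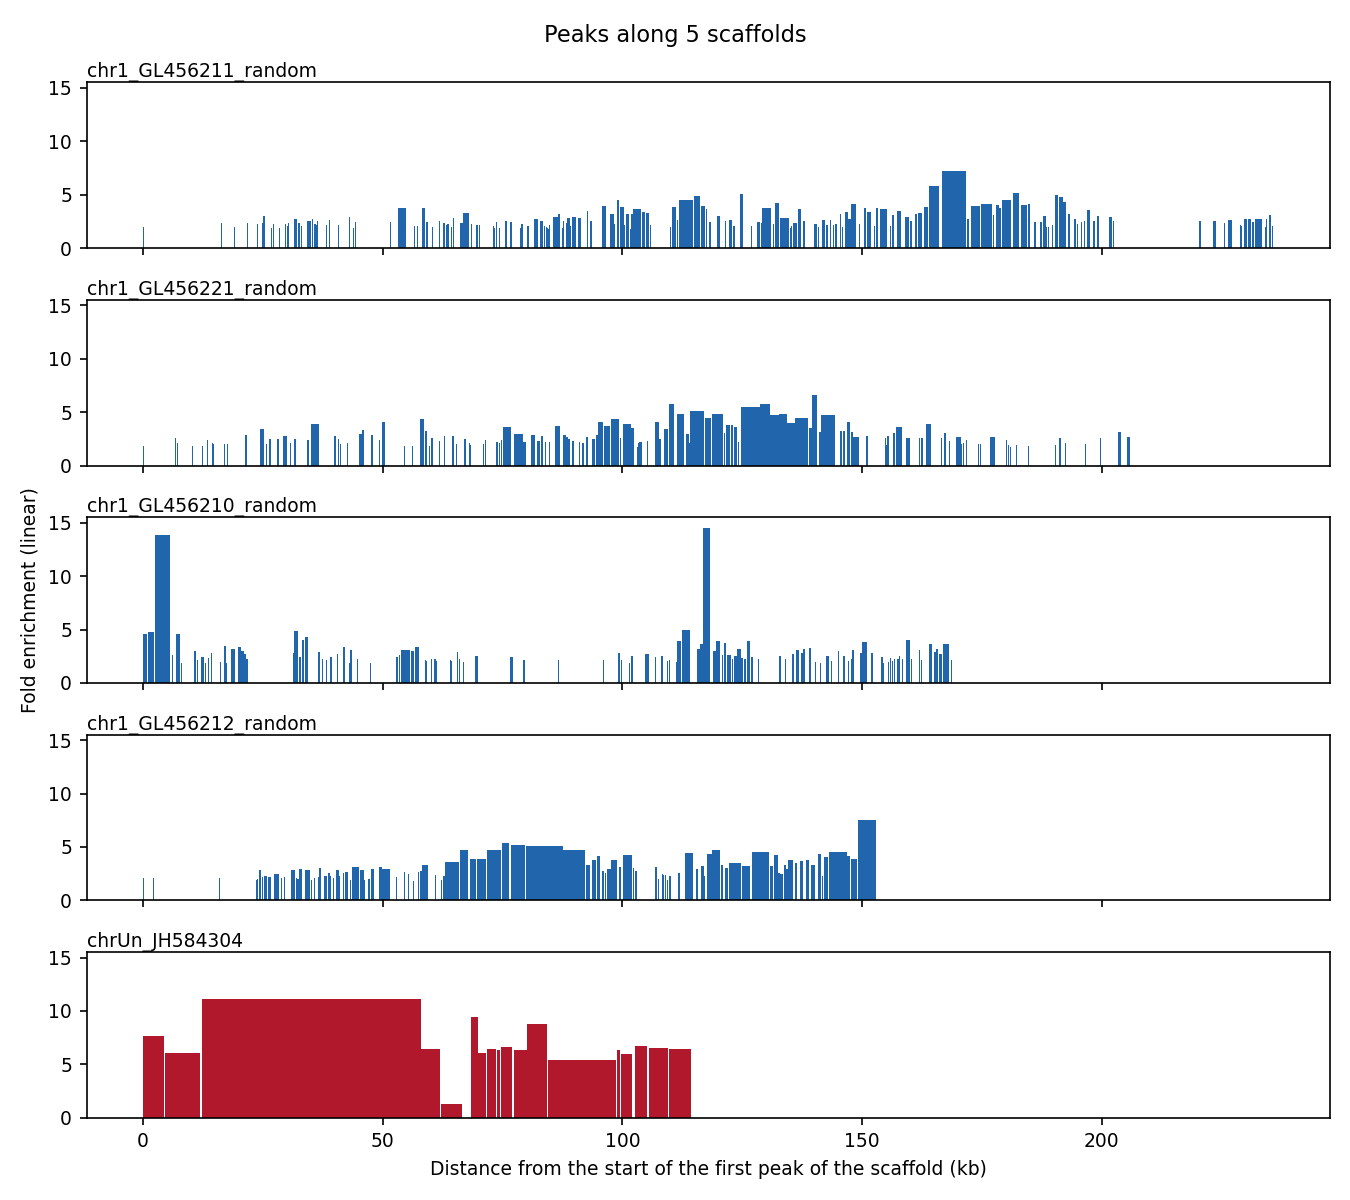
Peaks along the 4 chromosome 1 random scaffolds (blue) and chrUn_JH584304 (red), each bar spanning 1 listed interval with the fold of its summit as height; the horizontal axis is the distance from the first peak of the scaffold in kb. The blue scaffolds carry peaks along their whole spans, chr1_GL456210_random has 2 tall peaks of 13.8 and 14.5, and chrUn_JH584304 is almost filled by 18 intervals.

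chrUn_JH584304 differed in its values from most other scaffolds. It had 18 peaks, which covered 95.2% of the 114394 bp between the first and the last, with a median fold of 6.43 and a median −log10 q of 8824. All 18 were scored above the control floor, at control levels of 104 to 6926 stacked reads, against 21.0 for 98.0% of the whole list. Control and immunoprecipitate were thus both high here, and the immunoprecipitate was the higher by the listed fold. Copy number of the sequence and the handling of reads with several matches were not tested. A −log10 q over 1000 was given to 69 peaks of the whole list (0.116%), and 18 of the members had one, 13 of them here. Controls above 1000 were also found at 1 peak each of chrUn_GL456392 (3163) and chrUn_GL456389 (1720). On the placed chromosomes controls reached 44352.

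A stretch of 2006 bp without a peak (66536 to 68541) divides the scaffold. Before it, 5 intervals covered 98.6% of 66494 bp, with immunoprecipitation levels of 639 to 1259 and controls of 104 to 608. The widest interval of the whole list was among them, 45762 bp from 12238 to 57999, with a fold of 11.1 at its summit (16045), from 1166 reads over a control of 104. The last interval before the stretch, at 62185 to 66535, had the lowest fold of all members, 1.3, from 789 reads over a control of 608. It was the 1 peak of the scaffold under fold 5. Beyond the stretch, 13 intervals covered 94.5% of 45894 bp at levels of 10087 to 46809 reads over controls of 1577 to 6926. The immunoprecipitation level varied 4.64-fold among these 13 and the fold only 1.76-fold. Among the 5 before the stretch it was the other way round, with 1.97-fold for the level and 8.57-fold for the fold. Of the 13, 11 had folds of 5.39 to 6.76, and the other 2 had 8.76 (80124 to 84397) and 9.48 (68542 to 69888). The 5 members with the highest −log10 q all lay in this second part, led by the interval 102599 to 105277 with a −log10 q of 21522, a fold of 6.76 and 46809 stacked reads. The next were 105547 to 109644 (−log10 q 17757) and 77331 to 80045 (17220), followed by the 2 with folds above 8 (15726 and 15326). The 3 highest folds of the members lay on other scaffolds.

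**Figure D3:**
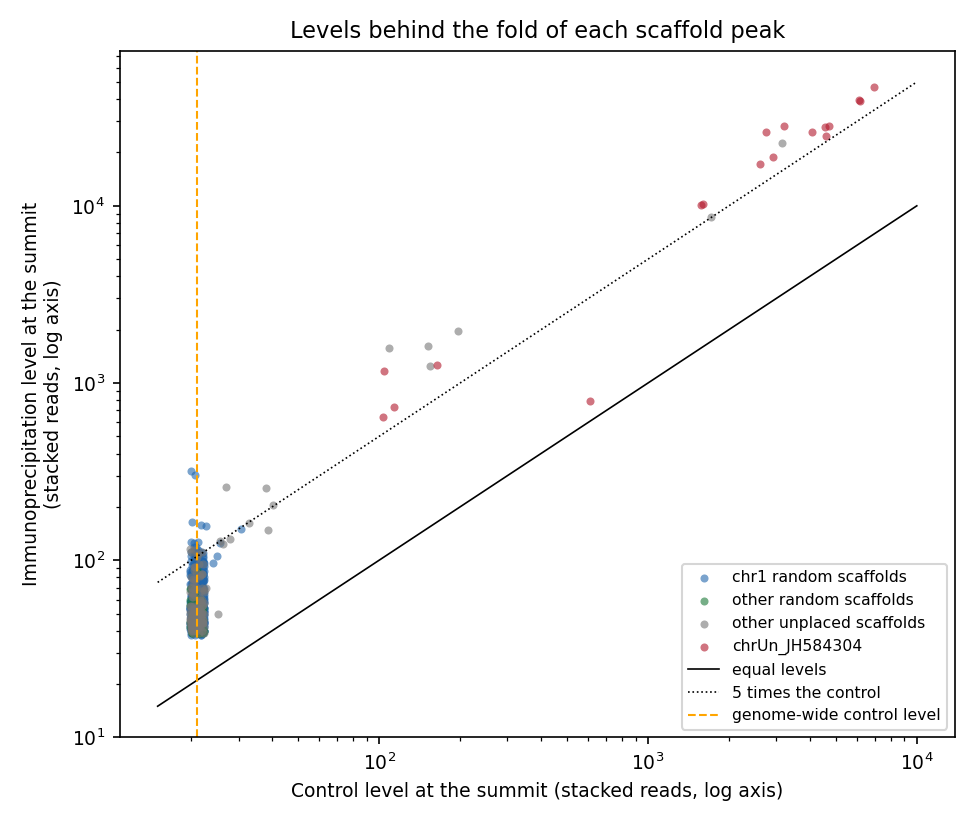
Immunoprecipitation level against control level at each member's summit, in stacked reads calculated back from fold and p (both axes log); points at the genome-wide control level of 21.0 (dashed) are spread sideways slightly so that they can be seen. The 18 red points of chrUn_JH584304 lie at controls of 104 and above, most of them above the dotted line of 5 times the control, while nearly all other members lie at the dashed line.

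The other 22 members above the floor were on 9 scaffolds. chrUn_GL456370 had 14 peaks in 2 kinds. Its 4 peaks above the floor were narrow (127 to 396 bp) and strong: 14.3 at 24 to 150, 10.6 at 3912 to 4083, 9.31 at 18732 to 19127 and 7.96 at 26298 to 26591. The first, second and last of these had 1571, 1618 and 1240 stacked reads over controls of 109, 152 and 155, and the third had 260 over 27.0. Its other 10 peaks formed 1 run of 3555 bp (11421 to 14975), all at the floor, with folds of 1.82 to 2.5. The 2 kinds were set apart after their values were seen, so their separation in fold is a description only.

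3 scaffolds with few peaks each held a single peak over a high control. chrUn_GL456392 had 4 peaks, of which 3 had folds of 2.22, 2.27 and 2.5 at the floor. The fourth (21818 to 23546, fold 7.12, −log10 q 10795) stood on 22529 reads over a control of 3163. chrUn_GL456389 had 1 peak (10380 to 10808), with a fold of 5.02 from 8631 reads over 1720. chrUn_GL456396 had 3, with folds of 4.62, 10.1 and 2.77, and the middle one (11948 to 12062) was only 115 bp wide with 1978 reads over 196. With chrUn_GL456370 and chrUn_JH584304, these were the 5 scaffolds with any member at a control above 100. None of the 694 peaks on random scaffolds was above 30.7.

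2 further unplaced scaffolds had slightly raised controls. chrUn_GL456378 had 21 peaks with a median fold of 3.22, covering 35.5% of 30821 bp, and 5 of them, within 4501 to 10698, had controls of 25.2 to 40.2. Its strongest peak (7229 to 8069) had a fold of 6.54 from 254 reads over 38.0, and its widest was 2074 bp (4501 to 6574; fold 4.98). chrUn_GL456367 had 11 peaks, 9 of them in a run of 5371 bp up to its last peak, with 3 controls between 22.7 and 26.3. Its strongest (9144 to 9612, fold 5.22) was at the floor, and its widest was 702 bp (11176 to 11877; fold 4.58).

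The other unplaced scaffolds were scored at the floor throughout. chrUn_GL456239 had 32 weak peaks (median fold 2.13, highest 3.27 at 11236 to 11895, widest 1226 bp at 3344 to 4569), and 25 of them followed each other within 163 to 15184. chrUn_GL456372 had 19 peaks, with a median fold of 2.36, a highest of 3.95 (13148 to 13599) and a widest of 650 bp (23245 to 23894). chrUn_GL456387 had 16, covering 36.6% of 23992 bp, with a median of 2.29. Its 2 strongest had equal folds of 5.08 (11032 to 12275 and 14670 to 15563), and the widest was 1470 bp (15795 to 17264; fold 3.27). chrUn_GL456368 had only 8 peaks but 59.9% of 19900 bp inside them, a median fold of 3.99 and a highest of 5.31 (19452 to 20082). Its first peak alone was 5753 bp wide (183 to 5935; fold 4.18). chrUn_GL456383 and chrUn_GL456394 had 6 peaks each, with medians of 2.11 and 2.52. chrUn_GL456390 had 3 between 1.86 and 2.18. chrUn_GL456359 had 1 peak of 2599 bp and fold 3.86, and chrUn_GL456360 had 1 of 50 bp and fold 1.91. On 7 of the 16 unplaced scaffolds, and on 10 of all 29 scaffolds, the first peak began within the first 500 bp of the sequence.

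Random scaffolds of the other chromosomes carried few peaks, with no member at fold 5 and all 59 at the control floor. The 5 assigned to chromosome 4 had 18 peaks with a median fold of 2.47 (highest 4.04), beside 2.27 on placed chromosome 4, where 5.05% of peaks reached fold 5. chr4_GL456216_random had 9 of them and chr4_GL456350_random 6, and chr4_JH584292_random, chr4_JH584293_random and chr4_JH584294_random had 1 each, with folds of 2.09, 2.22 and 2.54. The 3 assigned to chromosome 5 had 39 peaks with a median of 2.13 (highest 3.18), beside 2.18 on placed chromosome 5, where 6.33% reached fold 5. With 0 of 18 and 0 of 39 peaks, the Wilson upper bounds for the scaffolds were 17.6% and 8.97%, above both placed shares. chr5_JH584299_random was the most sparsely covered of the scaffolds with 10 or more peaks: its 20 peaks filled 0.814% of 666910 bp, with a single stretch of 546458 bp (158032 to 704489) free of peaks, and the strongest was also the widest (1346 bp from 154534 to 155879; fold 2.77). chr5_JH584298_random had 12 peaks, 11 of them in a run of 6030 bp at 64019 to 70048, among them the strongest and widest (388 bp from 64800 to 65187; fold 3.18). chr5_GL456354_random had 7, with folds of 1.82 to 2.86. The single scaffold of chromosome 7, chr7_GL456219_random, had 2 peaks with folds of 1.82 and 2.27.

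Strong members fell into those over a raised control and those over the floor. Of the 44 members with fold 5 or above, 27 (61.4%) were scored above the floor and 17 at it, 13 of the latter on the chromosome 1 scaffolds. On the placed chromosomes 41.9% of the 1740 peaks of that strength were above the floor. Their −log10 q had a median of 298 on the scaffolds and 67.2 on the placed chromosomes. Both of these differences turned round without chrUn_JH584304: of the 27 strong members left, 10 (37.0%) were above the floor, and their median −log10 q was 51.8. Among members between fold 2 and 3, which made up 52.7%, none was above the floor, and their median −log10 q was 5.43 beside 4.68. At the floor −log10 q follows from fold alone: 5.43 goes with a fold of 2.36 and 4.68 with 2.27. The difference thus restates a slightly higher fold within the class. The position of the summit within its interval was spread alike in both sets, with a median of 0.487 of the width and quartiles of 0.328 and 0.65 on scaffolds, and a median of 0.49 and quartiles of 0.332 and 0.649 on the placed chromosomes.

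**Figure D4:**
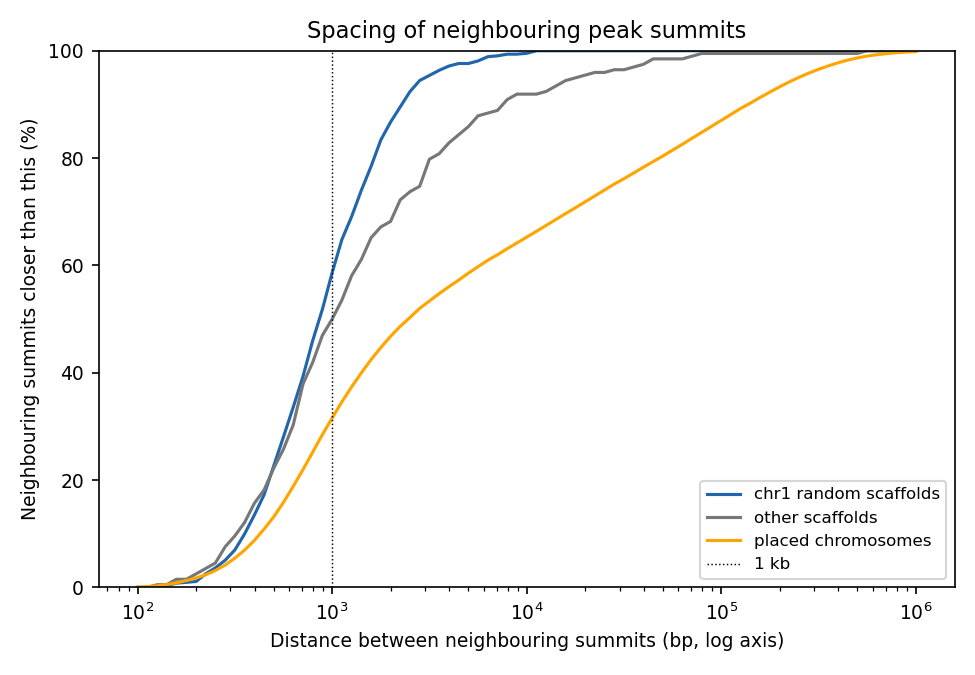
Percentage of neighbouring summits closer than the distance on the horizontal axis (bp, log axis) for the chromosome 1 random scaffolds, the other scaffolds and the placed chromosomes. At 1 kb (dotted line) the curves stand at 58.6%, 50.0% and 31.6%, and scaffold ends limit how large a distance can be in the first 2 sets.

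Among the 13 scaffolds with 10 or more peaks, 12 had a larger share of neighbours under 1 kb apart than the 31.6% of the placed chromosomes, and chrUn_JH584304 had a smaller one (11.8%). Of all 23 scaffolds with at least 2 peaks, 17 lay above that share. The other 5 below it were chrUn_GL456368 (28.6%) and, with 0 such neighbours among 2 to 4 peaks each, chrUn_GL456390, chrUn_GL456392, chrUn_GL456396 and chr7_GL456219_random. On the 4 chromosome 1 scaffolds the median distance between neighbours was 842 bp, and by scaffold 53.8 to 61.6% of distances were under 1 kb. On the other scaffolds the median was 1020.5 bp. The shortest median among scaffolds with 10 or more peaks was 386 bp on chrUn_GL456370 and the longest 2999 bp on chrUn_JH584304, whose intervals are wide. The placed chromosomes had a median of 2460 bp. At the Sp100, Sp110 and Sp140 genes of placed chromosome 1 the median was 761 bp, with 70.9% of distances under 1 kb. Close spacing was thus not particular to the scaffolds. Since scaffolds are short, distances beyond their length cannot occur on them, and the shares are not adjusted for this.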

How the data were processed

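The deposited list, with 1 row per peak and no header, represents 4 HA immunoprecipitations and 3 inputs of the ChIP-seq experiment. Per the submitters' processing notes, the build was mm10, and the tools included MACS2, Bowtie2 (2.2.9), Trim Galore (0.4.2) and SAMtools (1.4). Peak-calling settings, the joining of libraries and the treatment of reads with several matches are not given in the sources consulted; peak names carry the tag MAPQ0, unexplained there. The authors' fold enrichment is a linear ratio per peak, used only within the list. The deposited significance columns hold −log10 of p and q. The deposited browser score was not used.

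Coordinates are 1-based. Medians carry 95% order-statistic intervals and shares Wilson intervals. Control and immunoprecipitation levels were calculated back as described (tolerance 0.002 of a fold step). On simulated data, both levels came within 0.1% of the truth for 100% of 200 simulated peaks. The simulation used the same formulas that were then inverted, so it checks the solving step only. It does not test whether the peak caller used those formulas. Levels of 5000 or more also lay outside the check for whole numbers. Named peaks were the strongest and widest of each scaffold with 10 or more peaks, the strongest of smaller scaffolds at fold 5 or above, and the 10 highest members by fold and 5 by −log10 q; further peaks were named after their values were seen. Scaffolds and measures were chosen with earlier results of these data known. Computations used scipy 1.17.1, pandas 2.3.3 and numpy 2.4.6 under Python 3.11.15, with figures drawn in matplotlib 3.10.9.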

Additional observations from a re-analysis of the deposited data

How the results depend on the processing

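The list gives no value per library or read depth, and how reads with several matches were assigned is not stated. No paired analysis was possible because the list joins all ChIP libraries. Of 39 alternatives to the 5 summary values, 21 stayed within the main interval and 18 moved outside it. Several of the 18 changed the fold limit, the distance limit or the −log10 q filter and so measure another quantity. The tally is therefore no measure of robustness. All 6 alternatives for −log10 q stayed. With −log10 q of at least 4, the median fold was 2.86, the share at fold 5 or above 8.16%, the median width 465 bp and the share of close neighbours 34.3% (2.68, 7.27%, 365 bp and 21.3% on the placed chromosomes). The share at fold 5 or above was 2.16% on random and 17.7% on unplaced scaffolds. It was 9.03% with the 19 scaffolds of 5 or more peaks weighed equally. Unplaced scaffolds without chrUn_JH584304 had 8.22%. At fold 4 the share of all members was 11.9% and at fold 3 27.9% (placed 5.8% and 14.0%). Close neighbours made up 49.3% on unplaced scaffolds, 22.6% within 500 bp, 94.8% within 5 kb and 78.0% by gaps between intervals (placed 13.1%, 58.5% and 40.8% for the last 3). Merging gaps under 100 bp gave a median width of 317 bp. Alternatives chosen after seeing the data left out the 4 chromosome 1 scaffolds (13.0% at fold 5 or above, 236 bp, 50.0% close neighbours) or chrUn_JH584304 (3.21% at fold 5 or above, and among these a median −log10 q of 51.8 and 37.0% above the control floor). Apart from the changed limits, causes were not tested.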

Other observations

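On chrUn_JH584304, 4 consecutive intervals were followed about 25 kb further on by 4 of similar widths, a pattern noticed after the values were seen. The intervals beginning at 73809, 74654, 77331 and 80124 were 650, 2254, 2715 and 4274 bp wide, and those beginning at 98819, 99668, 102599 and 105547 were 704, 2480, 2679 and 4098 bp wide. Their summits were 25014, 25679, 25248 and 25248 bp apart, and their ends 25064, 25240, 25232 and 25247 bp. The immunoprecipitation levels were 10087 and 10210 reads in the first pair, 17295 and 28092 in the second, 39214 and 46809 in the third and 28185 and 39706 in the fourth. Whether the underlying sequence repeats was not tested.

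The 2 mitochondrial peaks, which belong to neither set, had folds of 1.12 and 2.06 with controls of 1746 and 1181 stacked reads. These controls are in the range found in the second part of chrUn_JH584304 or just below it, at a much lower fold.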
